A study of Mus musculus with 16 samples.

Results

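Whole brain of mouse embryos without Nova1 and Nova2 was compared with wild type brain on 8 of the 16 exon arrays of the series, chosen by their titles. The WT brain group held 4 wild type embryos and the dKO brain group 4 Nova1/2 double knockouts, all E18.5 embryos of the outbred CD1 stock, with 1 array per embryo. The sources used here do not say which parts of the genes the knockout alleles remove, and they name no promoter or cell type that would limit the loss. The 8 spinal cord arrays of the same design, 4 WT cord and 4 dKO cord, share no array with the brain comparison, but the test was fitted over both tissues together, so that brain and cord calls share 1 estimate of the spread. The question was which genes and which pieces of transcripts change in brain without the Nova proteins.

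Nova1 and Nova2 are RNA-binding proteins of neurons. They bind clusters of the motif YCAY in pre-mRNA, and whether an alternative exon is included or skipped depends on where the protein sits relative to the exon. Known targets code for proteins of the synapse, of cell adhesion and of the cytoskeleton. Exon arrays carry many short probe groups, called probe sets, along each gene, so that a single exon can be followed apart from the gene as a whole.

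Values are log2(intensity + 16). The level of a gene is the median over its probe sets, and the exon index of a probe set is that probe set's value less the gene level, taken array by array. A probe set or gene was called when limma's adjusted p was under 0.05 over all features tested. A change of an exon index can come from a cassette exon, another start or end of the transcript, or a sequence variant under the probes, and these cannot be told apart here. In whole tissue, fewer cells of a type and less RNA per cell cannot be told apart either.

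The brain arrays had median intensities between 72.3 and 82.9, and gene levels correlated at 0.946 or more within a genotype and at 0.945 or more between genotypes. Pan-neuronal marker genes marked the tissue as neural, with a mean level of 10.91 to 11.05 in WT and 10.85 to 10.98 in dKO brains. These 13 genes include Mtap2, whose level is described below, and the median of their changes was -0.01. None of 14 telencephalon and cortex genes was at or below the floor for dim probe sets in both groups. Their mean was lower in the arrays of number 3, at 7.60 in WT and 8.42 in dKO brain, than in the other 6 brains, where it ran from 9.35 to 9.52. By Xist and Y-linked genes, the 4 dKO brains were female and the WT brains were 2 females and 2 males. Choroid plexus genes (10 tested, none at or below the floor in both groups) had a mean of 8.67 to 8.73 in WT and 8.83 to 8.85 in dKO brains, so the groups did not overlap, but no gene of the list was called. Hox genes, which mark hindbrain and cord, ran from 6.16 to 7.27 in WT and from 7.03 to 7.35 in dKO, with 8 of 26 at or below the floor in both groups. The part of tissue makeup and of sex in the results was tested only through the fits named below, without the arrays of number 3 and with a sex term.

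The knockout was plain at Nova1. Its level was 10.25, 10.00, 10.72 and 10.13 in WT brains 1 to 4 and 4.64, 5.51, 5.29 and 5.51 in the dKO brains. All 8 of its probe sets were lower with separated groups, by 1.97 to 7.03 for the 7 above the floor, which brought most of them to background. A gene at background gives no reading of its exons, so the 5 Nova1 probe sets with a called exon index, 3 of them higher relative to the gene, are not described further. They remain in the counts that follow. Nova2 was read unevenly along the gene. Its probe set 5294108 had values of 9.09, 8.48, 9.42 and 9.20 in WT and 6.59, 6.59, 6.60 and 7.09 in dKO, while 4551019, among its brightest, had a mean of 11.81 in both groups. Of 16 Nova2 probe sets, 11 were lower with separated groups.

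Most genes with a changed piece of transcript in dKO brain had no called change of level. Among 193126 probe sets 290 had a called exon index (0.15%), 132 higher (0.0683%) and 158 lower (0.0818%) in dKO brain. They lay in 161 of 12340 genes (1.3%), and without Nova1 there were 285 in 160 genes, 129 higher and 156 lower. These counts are of the fit without pairs. With the replicate number as a block 101 of the 290 calls ended and 189 remained. Of the 161 genes 17 also had a called gene level, against 39 of all 14570 genes (0.268%), and 144 did not. Most genes had a single called probe set (117 of 161), 28 had 2 or 3 and 16 had 4 or more. The index changed by at least 1 for 150 of the 290 and by at least 2 for 29. The arrays of the genotypes were separated at all 290. The 290 were chosen by a test on these same arrays, so their separation is no further evidence. Of all probe sets tested 2.63% were separated, and 6373 (3.3%) had an unadjusted p under 0.05. The probe set's own value moved in the direction of its index for 263, by over 0.5 for 228. For 58 it moved by 0.5 or less, and 18 of those were in Mtap2, described below. The gene level moved further than the probe set at 51 of these 58 and less far at 7.

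**Figure D1:**
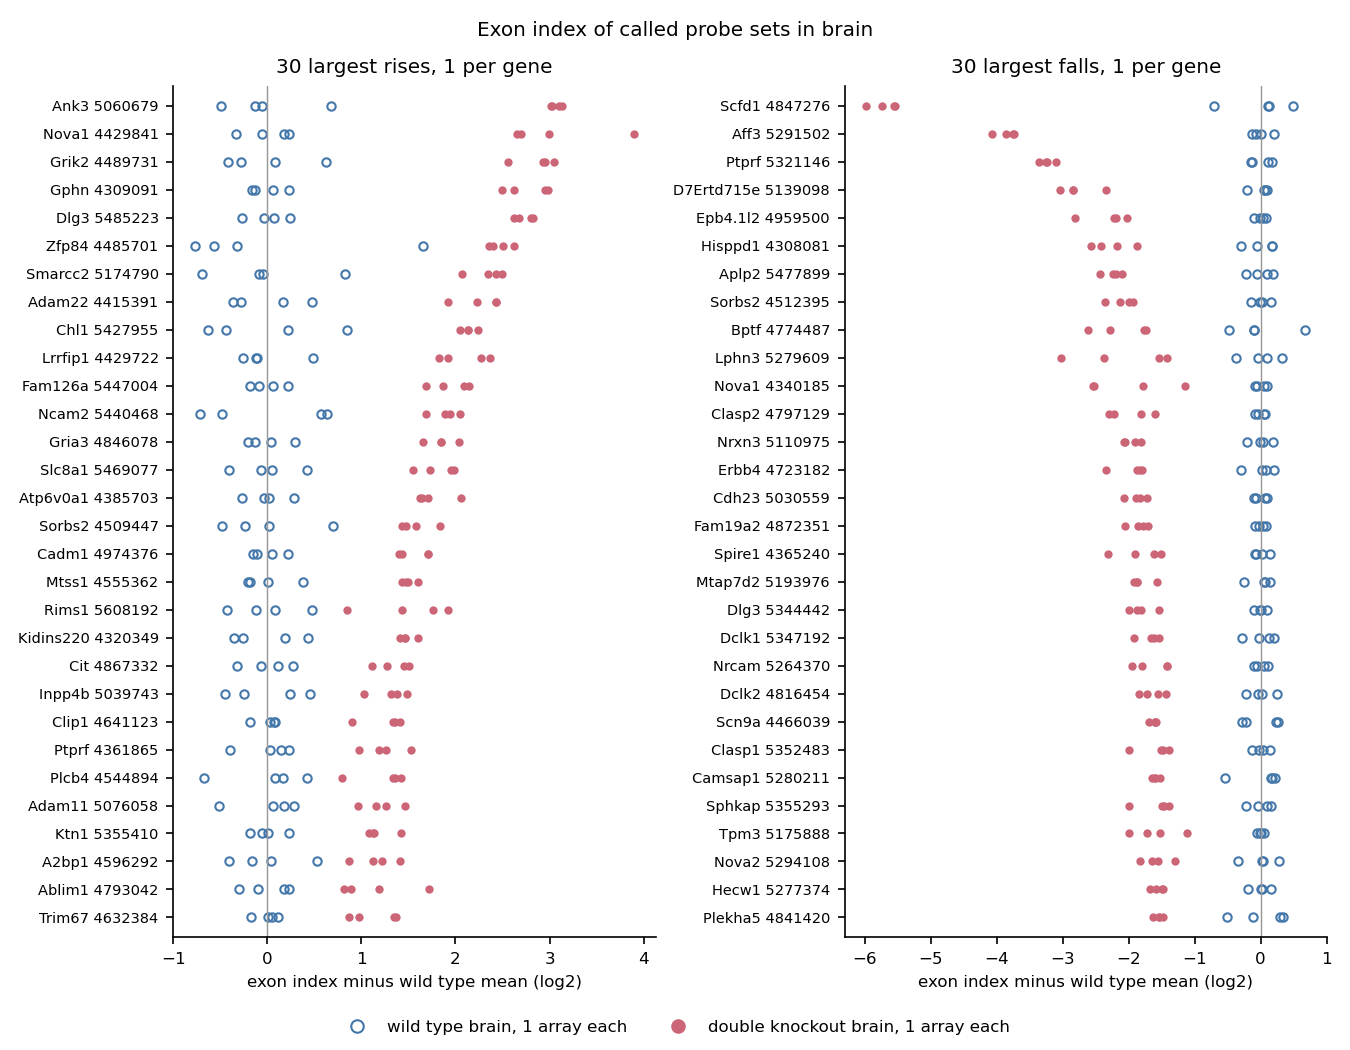
Exon index of 60 called probe sets on each brain array, drawn as the difference from the wild type mean (log2), for the 30 largest rises and 30 largest falls with 1 probe set per gene and direction; open circles are the 4 wild type and filled circles the 4 double knockout arrays. The genotypes do not overlap in any row, and 1 wild type array of Zfp84 lies far to the right of the other 3.

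Postsynaptic scaffolds and receptors held some of the largest rises. Gphn codes for gephyrin, the scaffold that anchors glycine and GABA-A receptors. Its probe set 4309091 had values of 8.19, 8.36, 8.0 and 7.96 in WT and 10.66, 10.94, 11.03 and 10.52 in dKO brains. The index rose by 2.76 (SE 0.125, adjusted p = 1.6e-08, n = 4 per group) while the gene level was at -0.11. This was the only called probe set of Gphn. Grik2, a kainate-type glutamate receptor subunit, had values at probe set 4489731 of 5.87, 7.17, 6.04 and 6.64 in WT and 9.28, 9.39, 9.12 and 9.51 in dKO. It lay at or near background in WT and well above it in dKO, and its index rose by 2.87 (SE 0.177, adjusted p = 4e-07). Gria3, an AMPA receptor subunit, rose in index by 1.85 at 4846078 (adjusted p = 7.2e-05), from a mean near background. In cord the same 3 probe sets rose by 2.24, 2.95 and 1.69, each called.

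Dlg3 codes for SAP102, a scaffold of NMDA receptors at excitatory synapses, and changed both as a gene and in its parts. The gene level was 9.51, 9.50, 9.27 and 9.55 in WT and 7.90, 7.84, 7.79 and 7.87 in dKO, and 24 of its 28 probe sets fell by over 0.5. Against this fall probe set 5485223 rose in its own value by 1.13, from 7.19, 6.95, 7.24 and 7.35 to 8.25, 8.37, 8.19 and 8.42, an index rise of 2.73 (adjusted p = 3.7e-08). Probe set 5344442 fell by 3.41, further than the gene, from a mean of 9.90 to 6.49. Cask, a membrane-associated guanylate kinase, fell at 4319053 by 1.18 in index (adjusted p = 6.7e-06). In all 3 of 30 postsynaptic scaffold genes had a called probe set, Gphn, Dlg3 and Cask, and 2 of 16 ionotropic glutamate receptor genes, Grik2 and Gria3, against 1.3% of all genes. Genes of these 2 lists are long, with medians of 28 and 22.5 probe sets tested against 11 for all genes. Of their probe sets 0.758% and 0.535% were called, against 0.15% of all probe sets.

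Rims1, which organises release sites at the active zone, had 5 called probe sets, all higher, by 1.07 to 1.49 in index and by 0.60 to 1.02 in their own values. The other probe sets of the gene went the opposite way, 17 of 43 falling by over 0.5, and the gene level was at -0.47. For 4421161, for example, the index rose by 1.33 (SE 0.116, adjusted p = 2e-05). Those at 5608192 and 4754988 were no longer called without both arrays of number 3 and with the 8 brain arrays alone (adjusted p up to 0.155 and 0.0655). Stxbp2, a partner of syntaxins, rose at 4431158 by 0.89 (adjusted p = 0.0086), and was not called with a higher floor or when both arrays of number 3 were left out (adjusted p up to 0.120). Of 44 vesicle release and active zone genes 4 had a called probe set (9.09%, against 1.3% of all genes), the other 2 being Pclo and Stx2. Of the probe sets of this list 1.04% were called, against 0.15% of all. With the replicate number as a block, the call of Stx2 ended (adjusted p = 0.0722), as did 2 of the 3 in Pclo (up to 0.0990).

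Molecules that join neurons to each other made up the group with the largest share after the Nova targets. They were 9 of 34 neuronal adhesion genes (26.5%, against 1.3% of all genes). Adam22, Agrn, Cadm1 and Nrcam of these 9 are on the list of Nova targets too. Genes of the adhesion list are long, with a median of 28 probe sets tested against 11 for all genes. Of their probe sets 1.4% were called, against 0.15% of all. Adam22, a receptor for LGI proteins at synapses, rose at 4415391 from 5.92, 6.92, 6.15 and 6.41 in WT to 8.43, 8.70, 8.81 and 8.20 in dKO, an index change of 2.25 (adjusted p = 2.9e-06). A second probe set, 4785224, rose by 2.24 and another, 4442753, fell by 0.82 (adjusted p = 0.0016; 0.0517 with the 8 brain arrays alone). Chl1 and Nrcam belong to the L1 family of adhesion molecules and moved in opposite directions. Chl1 rose at 5427955 by 2.13 (adjusted p = 0.00053), and Nrcam fell at 5264370 by 1.65 (adjusted p = 4.1e-06), from 11.87, 11.99, 12.14 and 11.97 to 10.09, 10.39, 10.37 and 9.98. Nrcam is a bright signal on both sides, and it lies 2 tested genes from Nova1 in RefSeq gene order (assembly GRCm38.p6).

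Neurexins and neuroligins face each other across the synapse, and 1 gene of each fell at a probe set, Nrxn3 at 5110975 by 1.97 (adjusted p = 2.2e-05) and Nlgn1 at 4661083 by 1.45 (adjusted p = 0.00021). Clstn1, a calsyntenin, fell at 4750032 by 1.10 (adjusted p = 6.7e-06), and Lphn3, an adhesion G protein-coupled receptor, at 5279609 by 2.09 (adjusted p = 0.0053; 0.120 with the 8 brain arrays alone). Cadm1, a SynCAM, rose at 4974376 from 7.95, 7.83, 7.96 and 7.83 to 9.41, 9.08, 9.13 and 9.40, an index change of 1.56 (adjusted p = 2.8e-05). In cord the Cadm1 index was at 0.16 (adjusted p = 0.70), and the difference between the tissues had an adjusted p of 0.108. Agrn, the organiser of neuromuscular synapses, fell at 5443828 by 1.05 (adjusted p = 0.00052) and was at -0.09 in cord, with an adjusted p of 0.415 for the difference.

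Of 40 axon guidance genes 5 had a called probe set (12.5%, against 1.3% of all genes). All but Sema4d, 4 of them, kept a call with the replicate block. Of the probe sets of this list 0.55% were called, against 0.15% of all. Ptprf, a LAR-type receptor phosphatase of growing axons, had among the steepest falls. Its probe set 5321146 went from 8.37, 8.18, 8.23 and 8.47 in WT to 5.13, 5.64, 5.34 and 5.29 in dKO, at background, an index change of -3.24 (adjusted p = 1.2e-08). In the same gene 4361865 rose by 1.24 (adjusted p = 0.0065; 0.0836 without both arrays of number 3). Neo1, a netrin receptor, rose at 4334084 by 0.93 (adjusted p = 0.00052) and by 1.46 in cord.

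The membrane skeleton ties ion channels and adhesion molecules to spectrin and actin. Called probe sets lay in 5 of its 22 genes (22.7%, against 1.3% of all genes). All 5 are on the list of Nova targets from the literature as well, so they add no separate group. Genes of the membrane skeleton list had a median of 30 probe sets tested, against 11 for all genes. Of their probe sets 1.4% were called, against 0.15% of all. Ank3 codes for ankyrin-G of the axon initial segment and showed the largest rise of all genes. Its probe set 5060679 had values of 6.76, 7.71, 6.71 and 6.93 in WT and 9.95, 10.04, 10.03 and 10.06 in dKO brains. The dKO arrays lay close together and far above the highest WT array, the second. The index rose by 3.07 (SE 0.181, adjusted p = 2.4e-07), and a second probe set of the gene, 4644860, by 2.69 (adjusted p = 0.0043; 0.219 with the 8 brain arrays alone). The gene level of Ank3 was at -0.07 with 70 probe sets tested.

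Epb4.1l2, a protein 4.1 that links spectrin to the membrane, went the other way. All 5 of its called probe sets fell, by 0.88 to 2.31, while the median change of its 30 probe sets was 0.10. Probe set 4959500 had values of 9.21, 8.98, 9.40 and 9.08 in WT and 6.38, 6.93, 7.13 and 6.96 in dKO brains. In cord it had values of 9.16, 8.98, 8.94 and 8.90 in WT and 7.71, 8.04, 7.99 and 8.09 in dKO. The index fell by 2.31 in brain (SE 0.135) and by 0.68 in cord. It was the only probe set with a called difference between the tissues (1.63, adjusted p = 0.047; 1 of 193126, with 10955 or 5.67% at an unadjusted p under 0.05), and this call ended with, among others, quantile normalization and the replicate block, and no probe set had a called difference in 6 of the 8 fits without 1 array, those without WT 1, 2, 3 or 4 or dKO 2 or 4. Spna2, the alpha spectrin of brain, fell at 5084491 by 1.44 (adjusted p = 6.7e-06) and by 1.48 in cord. Epb4.1l3 fell at 5517310 by 0.84, and Ank2 rose at 5483488 by 0.93. With the replicate block the calls of Epb4.1l3 and Ank2 ended (adjusted p = 0.0611 and 0.0867), which left 3 of the 22 genes.

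Microtubule genes had called probe sets in 8 of 38 (21.1%, against 1.3% of all genes). All but Dst, 7 of the 8, kept a call with the replicate block. Of the probe sets of this list 2.56% were called, against 0.15% of all, and 21 of these 31 calls lay in Mtap2. The plus-end proteins Clasp1 and Clasp2, which steady growing microtubules, both fell, Clasp2 at 4797129 by 1.99 (adjusted p = 3.5e-06) and Clasp1 at 5352483 by 1.59 (adjusted p = 4e-05). Clip1, another plus-end protein, rose at 4641123 by 1.25 (adjusted p = 0.0004). The doublecortin-like kinases Dclk1 and Dclk2, which bind microtubules of migrating neurons, fell at 5347192 by 1.68 (adjusted p = 6.1e-06) and at 4816454 by 1.64 (adjusted p = 1.7e-05). Mtap7d2 fell at 5193976 by 1.81 and Camsap1, which caps minus ends, at 5280211 by 1.59. All of these genes had a level within 0.11 of no change.

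Mtap2, the dendritic protein MAP2, needs its probe sets read apart. It had more called probe sets than any other gene, 21 of 35, 18 higher and 3 lower in index, and a gene level at -1.0 (adjusted p = 0.00012). Yet 30 of its 35 probe sets changed by 0.5 or less in their own value, 5 fell by more, and the median of their own changes was -0.09. The 18 that were higher in index had own changes between -0.25 and 0.03. With means over probe sets the gene level was at -0.31 (adjusted p = 0.329), and with each probe set centred before the median was taken, a setting chosen after the data were seen, its call ended too. In the own values, then, a few probe sets of Mtap2 fell and the bulk stayed within 0.5. With the replicate block 6 of the 21 exon index calls ended, among them all 3 of the lower ones (adjusted p up to 0.242). Zhx3 had a median own change of -0.07 under a called level of -0.67, which ended with means and with centred probe sets. Slc8a1 was split, with 10 of 22 probe sets falling by over 0.5, 10 within 0.5 and 2 rising by more. Its level call, at -0.60, ended with centred probe sets and held with means (adjusted p = 0.025).

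**Figure D2:**
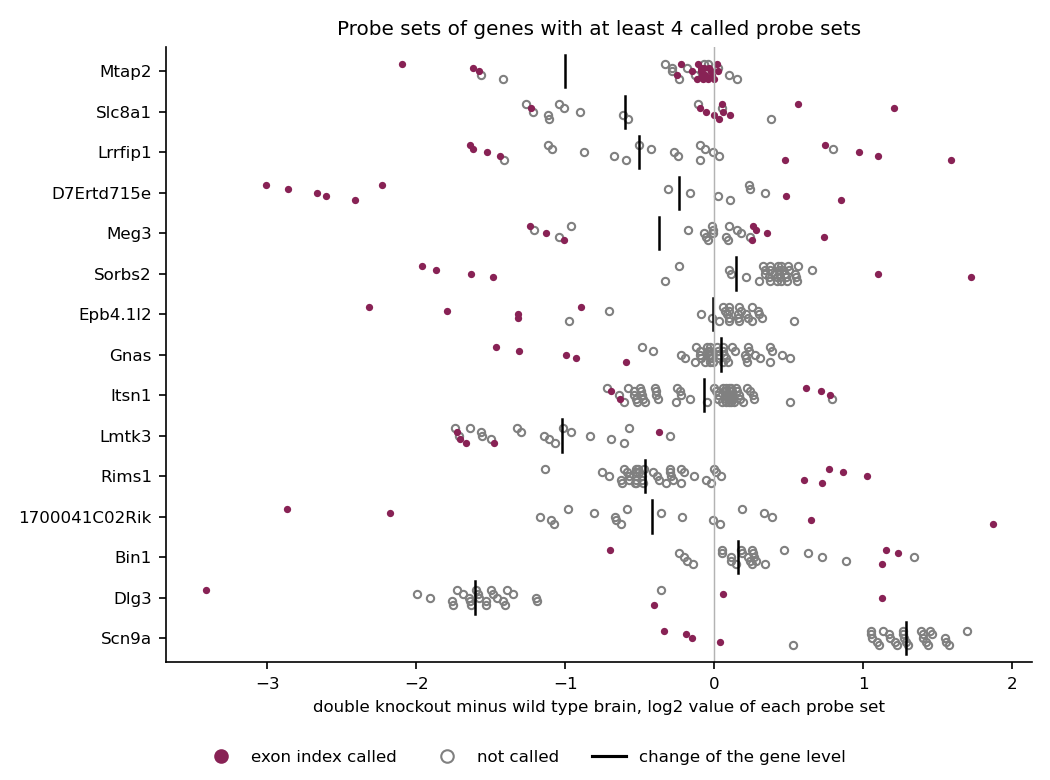
Change of each probe set's own log2 value, double knockout minus wild type brain, for the 15 genes other than Nova1 with at least 4 called probe sets; filled points have a called exon index, and the black bar is the change of the gene level. In Scn9a and Dlg3 nearly all probe sets moved with the gene. In D7Ertd715e and Sorbs2 a group fell far below the rest, and most points of Sorbs2 lie to the right of 0. In Mtap2 most points lie near 0 and away from the bar.

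Actin regulators and adaptors had called probe sets in 8 of 37 genes (21.6%, against 1.3% of all genes). All but Abi1 and Ablim1, 6 of the 8, kept a call with the replicate block. Of the probe sets of this list 1.6% were called, against 0.15% of all. Sorbs2, an adaptor that joins actin to adhesion sites, had a group of 4 that fell and a pair that rose. Probe sets 4512395, 4369857 and 4349170 fell by 2.11, 2.01 and 1.78 in index, and the first had values of 10.00, 9.94, 9.99 and 9.88 in WT and 7.99, 8.15, 7.75 and 8.07 in dKO brains. Probe set 4509447 rose by 1.58 (adjusted p = 0.0025; 0.0696 with the 8 brain arrays alone), and the call of the other, 4627393, ended with the replicate block (adjusted p = 0.0953). Of the 39 probe sets of the gene 27 changed by 0.5 or less in their own value, 8 rose by more and 4 fell by more. The median of their own changes was 0.42, and 21 were higher with separated groups. Mtss1, which bends membranes at the cell edge, rose at 4555362 by 1.5 (adjusted p = 3.4e-05) and by 2.16 in cord. Tpm3, a tropomyosin, fell at 5175888 by 1.59 (adjusted p = 1.7e-05), from 10.64, 10.47, 10.51 and 10.70 to 8.86, 8.89, 8.98 and 8.72. Spire1, an actin nucleator, fell at 4365240 by 1.84, and Ctnnd2, delta-catenin, at 5327048 by 0.99. Itsn1, an endocytic scaffold with 5 called probe sets in both directions, moved by less than 0.9 at each, and at 4 of them the call ended in 5 to 7 of the 8 fits without 1 array (adjusted p up to 0.213) and with the replicate block (up to 0.235).

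Kinases and their regulators changed in both directions. Erbb4, a neuregulin receptor, fell at 4723182 by 1.96 (adjusted p = 2.2e-06), from 8.89, 8.73, 9.21 and 8.94 to 7.22, 7.30, 7.26 and 6.71, and rose at 5258686 by 1.08 (adjusted p = 0.0077; up to 0.218 with the 8 brain arrays alone or without both arrays of number 3). Camk2g, a subunit of calcium/calmodulin-dependent kinase II, fell at 5282948 by 1.5 (adjusted p = 4.4e-06), and Camk2d, another subunit, at 4513650 by 0.97 (adjusted p = 0.0013). Camk2d also rose at 4519362 by 1.09 (adjusted p = 0.0324), a call that ended in 6 of the 8 fits without 1 array (up to 0.140) and with the 8 brain arrays alone (0.346). Mapk9 codes for the kinase JNK2, whose transcripts differ by mutually exclusive exons. Its probe set 5462265 rose by 1.04 (adjusted p = 0.001) and by 1.76 in cord, while 5252115 fell by 1.55 (adjusted p = 0.025), a call that ended in 7 of the 8 fits without 1 array. Pak3, an X-linked kinase of dendritic spines, fell at 5141332 by 0.98 (adjusted p = 0.0011). Of 31 MAP kinase and small GTPase genes 5 had a called probe set (16.1%), 2 of them with the replicate block. Among 21 calcium and calmodulin kinase and phosphatase genes 3 had one (14.3%), 2 of them with the block. The share of all genes was 1.3%. Of the probe sets of these 2 lists 0.792% and 0.621% were called, against 0.15% of all.

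Of 32 chromatin and neuronal transcription regulators 3 had a called probe set, Aff3, Smarcc2 and Actl6b (9.38%, against 1.3% of all genes). Of the probe sets of this list 0.752% were called, against 0.15% of all. Aff3, a nuclear factor of transcription elongation complexes, went at 5291502 from 10.26, 10.32, 10.20 and 10.60 in WT to 6.82, 6.71, 5.87 and 6.67 in dKO, at background. Its index fell by 3.85 (SE 0.122, adjusted p = 1.9e-10) and by 2.74 in cord, with the gene level at 0.02. Smarcc2 and Actl6b are subunits of the neuronal BAF chromatin complex. Smarcc2 rose at 5174790 and 5548710 by 2.34 and 1.26 (adjusted p = 0.0017 and 6.8e-05). All 3 called probe sets of Actl6b fell, by 0.75 to 1.02, and by 0.74 to 1.01 in cord, and the one at 5229092 had an adjusted p of 0.0504 without both arrays of number 3. Bptf, a chromatin reader, fell at 4774487 by 2.10 (adjusted p = 0.00021). A2bp1, the splicing factor Rbfox1, rose at 4596292 by 1.15 (adjusted p = 0.0043; up to 0.148 with the 8 brain arrays alone or a higher floor). Beside Nova1 and Nova2 it was the only 1 of 33 splicing regulators with a called probe set, and no other had a called level.

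Some of the larger rises lay in genes of no list drawn up here. Fam126a rose at 5447004 by 1.95 (adjusted p = 3.1e-06), from 6.58, 6.53, 6.52 and 6.4, below the floor, to 8.74, 9.17, 8.88 and 8.88. Atp6v0a1, a subunit of the vesicular proton pump, rose at 4385703 by 1.76 (adjusted p = 0.00021). Kidins220, a scaffold of neurotrophin receptors, rose at 4320349 by 1.48 (adjusted p = 5e-05). Of 22 ion pump and transporter genes 2 had a called probe set, Slc8a1 and Slc4a10 (9.09%, against 1.3% of all genes). Slc8a1, the sodium-calcium exchanger, rose in own value at 5469077 by 1.21 and at 5482499 by 0.56. Of its other 8 calls, 7 were of probe sets whose own change lay between -0.09 and 0.11, and 4934259 fell by 1.23 in own value. All of these other 8 ended with the replicate block (adjusted p up to 0.278). Slc4a10, a bicarbonate transporter whose level fell as well, lost more at 5155297, which went from a mean of 8.74 to 6.59. Lrrfip1 had 5 probe sets that rose, led by 4429722 at 2.09, and 4 that fell, by 0.94 to 1.14; with the replicate block 2 of the falls, at 4440594 and 4806810, ended (adjusted p = 0.0638 and 0.0829), and 2 of the rises, at 4969087 and 5493062 (0.140 and 0.0633). The rises at 4969087 and 5493062 also ended in 5 and 4 of the 8 fits without 1 array.

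Several genes of imprinted loci, where at least some transcripts come from 1 parental copy, were among those with many called probe sets. D7Ertd715e, a transcript of the Snrpn region, fell at 6 of 15 probe sets by 1.99 to 2.77 in index and rose at 2, whose calls ended with the replicate block (adjusted p = 0.0646 and 0.110). Probe set 5139098 had values of 9.91, 10.07, 10.57 and 10.28 in WT and 7.08, 7.34, 7.29 and 7.11 in dKO brains (adjusted p = 7e-07). The 6 falls were 1.29 to 2.64 in cord, each called, and 8 of the 15 probe sets changed by 0.5 or less. Gnas, the stimulatory G protein subunit, fell at 5 of 49 probe sets, the most at 5211163 by 1.51 (adjusted p = 0.00088), and 1 of the 5 calls ended with the replicate block (adjusted p = 0.270). Meg3, a long noncoding RNA, had 3 lower and 5 higher probe sets, all within 1.2, of which 3 ended with the replicate block (adjusted p up to 0.0775). No list of imprinted genes was drawn up for this comparison.

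Scfd1, which works in vesicle transport from the endoplasmic reticulum, showed the steepest fall of all and stood apart from the other genes. Probe set 4847276 had values of 13.14, 12.16, 12.30 and 12.70 in WT and 6.70, 7.07, 6.87 and 6.20 in dKO brains. The index fell by 5.70 (SE 0.551, adjusted p = 6.1e-05), and the other 23 probe sets tested gave no call. In cord its values were 9.45, 8.56, 6.29 and 7.59 in WT and 6.5, 8.56, 6.13 and 8.01 in dKO, which overlap and spread over more than 3 units. The index in cord was at -0.56 (adjusted p = 0.74), and the difference between the tissues had an adjusted p of 0.157. Scfd1 lies 3 tested genes from Nova1. Whether a sequence variant carried beside the targeted allele lies under its probes was not tested.

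**Figure D3:**
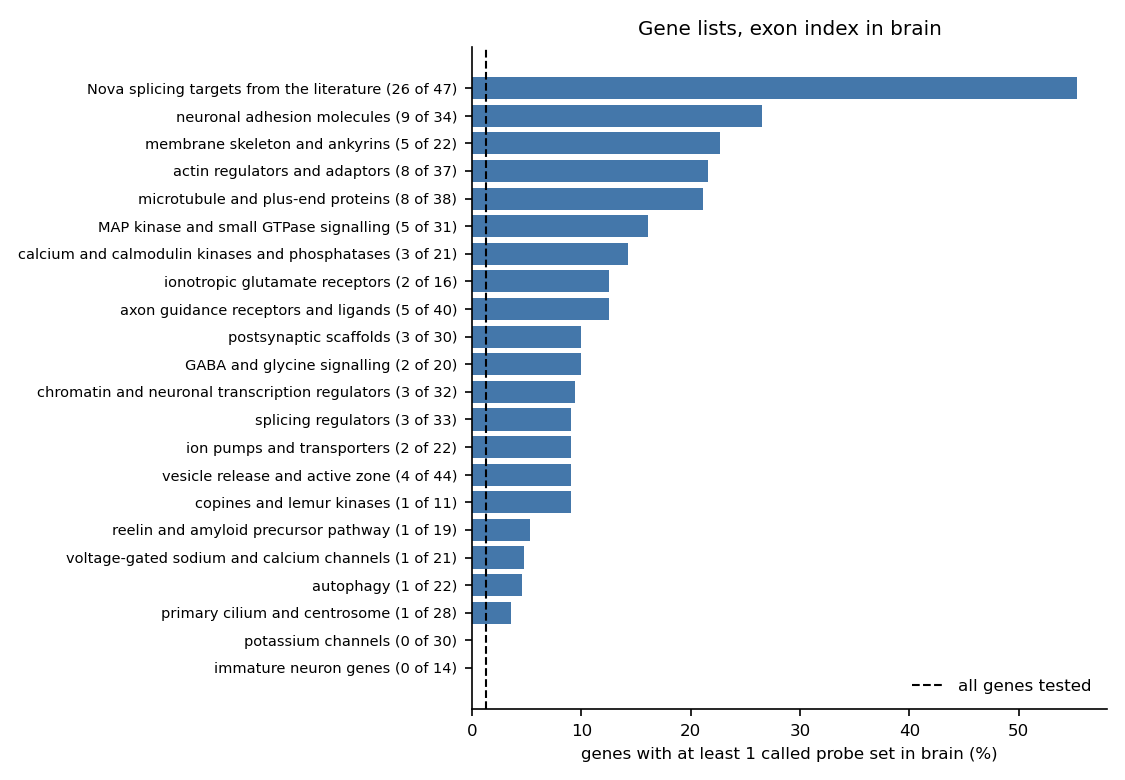
Share of the tested genes of each list that held at least 1 called probe set in brain (%), with counts beside each name; the dashed line marks the share over all genes tested, 1.3%. Nova targets from the literature lead at 55.3%, and potassium channel and immature neuron genes lie at 0.

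Set over all the gene lists, 26 of 47 Nova splicing targets from the literature had a called probe set (55.3%), Nova1 itself among them, and 48 of their 1630 probe sets were called (2.94%), 18 higher and 30 lower. Without Nova1 these were 25 of 46 genes (54.3%) and 43 of 1623 probe sets. With the replicate block 21 of the 26 genes kept a called probe set, and Ank2, Epb4.1l3, Plcb4, Stx2 and Trim9 did not. That literature rests partly on Nova knockout mice, so the list gives no independent evidence. Its genes are also long, with a median of 31 probe sets tested against 11 for all genes. Other lists share called genes with it, among them Clasp1, Clasp2 and Mtap4 of the microtubule genes and Itsn1, Mtss1 and Tpm3 of the actin genes. Of 30 potassium channel genes none had a called probe set or level, with 457 probe sets tested. Over all genes the shares were 1.3% with a called probe set and 0.268% with a called level. A list of 30 genes is too short to tell a lack of calls from such shares. Among 21 voltage-gated sodium and calcium channel genes, Scn9a had a called probe set (1 gene, 4.76%). A called level was found for 3, Scn9a, Scn2a1 and Cacna2d3. The immature neuron list held no call among 14 genes, which are too few as well. The lists were compiled with earlier results of these data known and are given as descriptions.

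The called probe sets were then read on the spinal cord arrays. Of the 290, 281 changed in the same direction in cord (96.9%, against 53% of all probe sets tested) and 184 were called there in that direction (63.4%, against 0.388% of all probe sets called in cord, 0.235% higher and 0.153% lower). None was called in the opposite direction. With the 8 cord arrays fitted alone, a setting chosen after the data were seen, 111 of the 290 were called in the brain's direction (38.3%, against 0.104% of all probe sets). With each tissue fitted alone there were 192 brain calls (0.0994%), of which 186 had the same direction in cord and 82 (42.7%) were called there. The changes were mostly smaller in cord, at 231 of 290, with a median of 0.79 in the brain's direction against 1.01 in brain. These probe sets were chosen for passing the test in brain and not in cord, so the medians are not a comparison of the tissues.

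**Figure D4:**
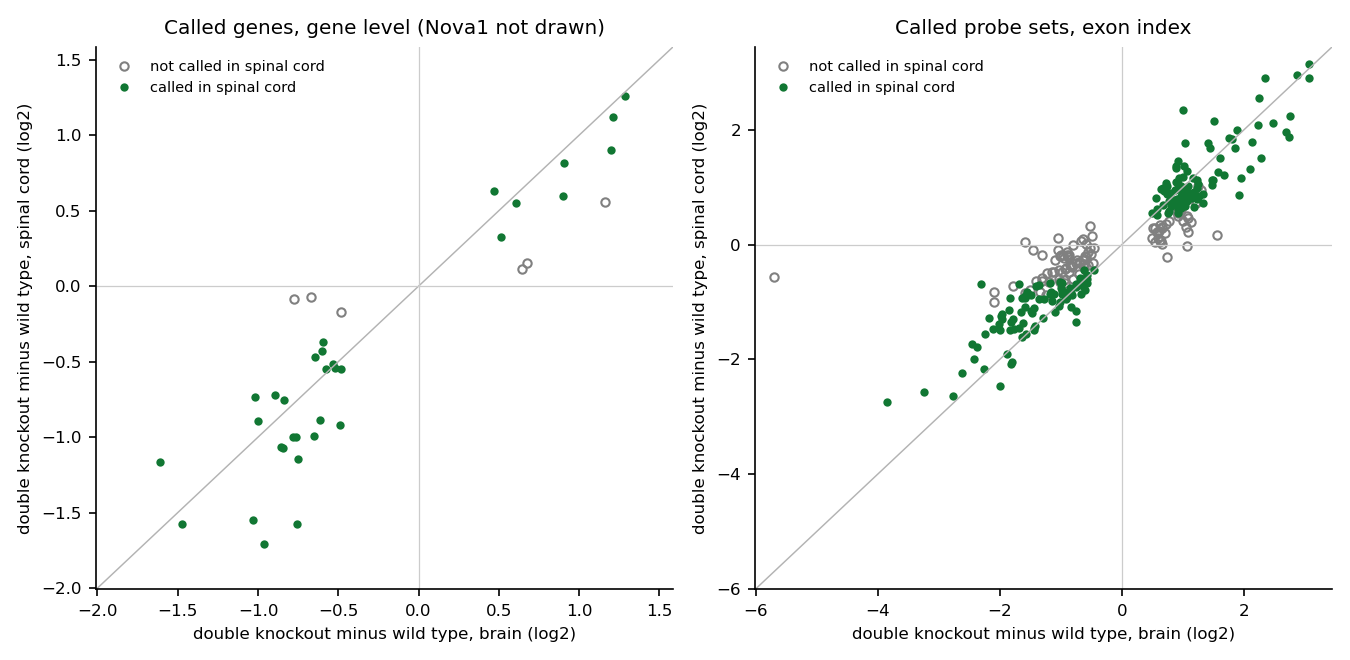
Change in brain (horizontal) against change in spinal cord (vertical), double knockout minus wild type in log2 units, for the called genes other than Nova1 (left) and the 290 called probe sets (right); filled points were also called in cord, and the diagonal marks equal change. Nearly all points lie at the lower left and the upper right, and Scfd1 is the single point far to the left.

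Gene levels were called for 39 of 14570 genes (0.268%), 11 higher (0.0755%) and 28 lower (0.192%). At an unadjusted p under 0.05 there were 776 (5.33%). The median change of all genes was 0.02. All 39 changed in the same direction in cord, where 33 were called (84.6%, against 5.63% of all genes, 1.08% higher and 4.55% lower). With the cord arrays fitted alone 32 of the 39 were called (82.1%, against 3.97%), and with each tissue alone 21 of the 24 genes called in brain (0.165% of all). Of all genes 58.1% had the same sign in both tissues. The 6 without a call in cord were Gipr, Mest, Epcam, C1qtnf2, Zhx3 and Zim3. None of the 14570 genes had a called difference between the tissues with limma (1166, or 8%, at an unadjusted p under 0.05).

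Of the 11 genes that rose, 7 had all their probe sets higher. Cpne3, a calcium-dependent phospholipid-binding protein, was at 8.14, 8.48, 8.19 and 8.08 in WT and 9.34, 9.43, 9.37 and 9.60 in dKO brains, and all 17 probe sets were higher with separated groups. Atg4a, a protease of autophagy, was at 7.44, 7.81, 7.39 and 7.56 in WT and 8.92, 8.65, 8.90 and 8.54 in dKO. Scn9a codes for the sodium channel Nav1.7 of sensory neurons. Of its 31 probe sets 27 rose by over 0.5, while 4466039, 4828271, 5098510 and 4638146 stayed between -0.34 and 0.04 and were called lower in index; at 4638146 the call ended with the replicate block (adjusted p = 0.0953) and in 7 of the 8 fits without 1 array. These 4 were bright in WT brain, with means between 9.78 and 11.15, against a gene level of 7.86 to 9.0. Mest, an imprinted gene of growth, was at 11.10, 11.40, 11.56 and 11.19 in WT and at 11.98, 11.99, 12.03 and 11.95 in dKO, with all 16 probe sets separated, and was at 0.15 in cord (adjusted p = 0.47). Schwann cell and ganglion markers, a list of 11 tested genes that holds Scn9a itself, had mean levels of 7.91 to 8.23 in WT and 8.14 to 8.43 in dKO brains, overlapping, and their part in the rise of Scn9a was not tested.

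**Figure D5:**
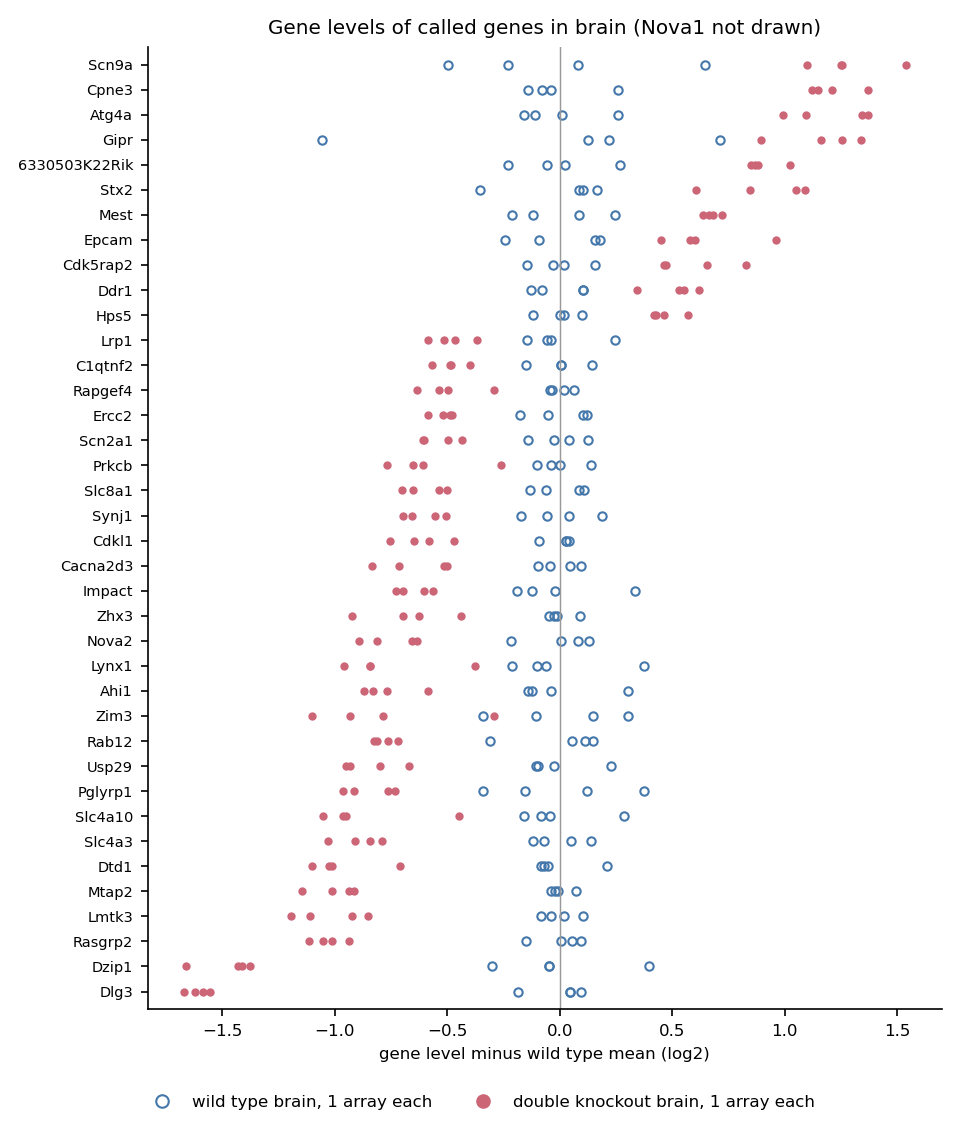
Gene level of the called genes other than Nova1 on each brain array, as the difference from the wild type mean (log2); open circles are the 4 wild type and filled circles the 4 double knockout arrays. The genotypes are separated for each gene drawn except Zim3, and Gipr has a WT array over 1 unit below its group mean.

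Among the genes that fell were 5 that handle ions. They made up 2 of 21 sodium and calcium channel genes and 3 of 22 ion pump and transporter genes. Another of these 21 channel genes, Scn9a, was called higher, by 1.28. Of all genes 0.192% were called lower. Scn2a1, the sodium channel of the axon initial segment, was at 9.98, 10.10, 10.17 and 10.25 in WT and 9.52, 9.52, 9.69 and 9.63 in dKO, a fall of 0.54 (SE 0.0914, adjusted p = 0.006) with all 37 probe sets lower. Cacna2d3, an auxiliary subunit of calcium channels, fell by 0.64 (adjusted p = 0.0039), lower at 38 of 39 probe sets. The bicarbonate transporters Slc4a3 and Slc4a10 were lower at all 27 and all 29 of their probe sets. The fifth was Slc8a1, whose level call ended with centred probe sets. With the 8 brain arrays alone the level calls of Scn2a1 and Slc4a10 ended (adjusted p = 0.0527 and 0.0516). Median changes were -0.08 over the 21 sodium and calcium channel genes, -0.14 over the 22 ion pump and transporter genes and -0.09 over the 30 potassium channel genes, against 0.02 over all genes. Over all lists the medians ran from -0.20 (GABA and glycine signalling) to 0.07 (chromatin and neuronal transcription regulators), with ionotropic glutamate receptors at -0.10.

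Rasgrp2, an activator of Rap GTPases, was at 9.67, 9.42, 9.63 and 9.58 in WT and 8.56, 8.52, 8.64 and 8.46 in dKO, with all 22 probe sets lower. Lmtk3, a lemur kinase, was lower at all 23, and the median of their own changes was -1.30. Dzip1, a protein of the primary cilium, was lower with separated groups at all 24, and 1 of them, 4647800, fell by only 0.55 against 1.47 for the gene. Ahi1, a gene of the ciliary base, was at 10.91, 10.89, 11.34 and 11.00 in WT and 10.17, 10.20, 10.45 and 10.26 in dKO (change -0.76, adjusted p = 0.0025). Cdk5rap2, a centrosomal protein, rose instead by 0.61. Synj1, a phosphatase of synaptic vesicle recycling, fell by 0.60 (adjusted p = 0.0059), lower at 42 of 44 probe sets. Rab12, a GTPase of membrane traffic, fell by 0.78 (adjusted p = 0.0016), and Dtd1, which removes D-amino acids from tRNA, by 0.96. Usp29 and Impact, both imprinted, fell by 0.84 and 0.65 (adjusted p = 0.0059 and 0.006), lower at all 5 and all 16 probe sets, and by 0.75 and 0.99 in cord.

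Of the 39 genes 27 were called in every fit without 1 array. The other 12 had called changes that kept their direction and 0.697 to 1.21 times their size but ended in 2 to 7 of the 8 fits. These were Lynx1 (without dKO 1 or 2, adjusted p up to 0.0629), Rapgef4 (WT 1 or 4, dKO 1, 2 or 4, up to 0.117), Gipr (the same 5 arrays, up to 0.122), Epcam (WT 1 or 4, dKO 1, 3 or 4, up to 0.145) and Ddr1 (WT 2 or 4, dKO 1, 2 or 3, up to 0.0825). Hps5 and Zim3 ended in 6 fits each (up to 0.131 without any but WT 2 or 3, and up to 0.171 without any but WT 3 or dKO 3). Lrp1 and C1qtnf2 ended in all but the fit without WT 2 (up to 0.180 and 0.168), Ercc2 in all but that without WT 3 (up to 0.175), and Prkcb and Cdkl1 in all but that without dKO 3 (up to 0.197 and 0.127). With the replicate block the calls of Hps5 (adjusted p = 0.0563), Lrp1 (0.0797), C1qtnf2 (0.065), Ercc2 (0.0715) and Zim3 (0.0887) ended. Fitted on the 8 brain arrays alone, calls ended for Scn2a1 (0.0527), Impact (0.077), Cdk5rap2 (0.077), Pglyrp1 (0.0518) and Slc4a10 (0.0516), which held in every fit without 1 array. Lrp1, a large lipoprotein receptor, was lower at all 93 of its probe sets, 76 of them separated.

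Of the 290 probe sets 193 were called in every fit without 1 array, and of the 60 with the largest rises and falls 55. The exceptions were Ablim1 and Trim67, which ended in all 8 fits (adjusted p up to 0.207 and 0.165), Zfp84, in all but the fit without WT 2 (up to 0.0845), Inpp4b, without WT 3 or 4 or dKO 1, 2 or 3 (up to 0.128), and Plcb4, without dKO 2 (0.0504). With the replicate block the calls of Zfp84 (0.0646), Plcb4 (0.0546), Ablim1 (0.0633) and Trim67 (0.144) ended. With a sex term those of Zfp84, Inpp4b, Ablim1 and Trim67 ended. On chromosome X 14 of 397 genes had a called probe set (3.53%, against 1.3% of all genes). Those of Dlg3, Gria3 and Mtap7d2 among the 60 were called with the sex term. Cask and Pak3, described above and also on chromosome X, are not among the 60, and their calls with the sex term are not given.

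Genes near the targeted loci were counted as well. Within 100 tested genes on either side, 5 of 169 genes near Nova1 (2.96%) and 5 of 155 near Nova2 (3.23%) had a called probe set, against 1.3% of all genes. Called levels numbered 1 of 200 near Nova1, Cdkl1, and 5 of 197 near Nova2 (2.54%, against 0.268% of all genes), which were Pglyrp1, Gipr, Ercc2, Zim3 and Usp29 at 2, 11, 20, 53 and 54 tested genes. The part of the targeted chromosome segment in these changes was not tested.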

How the data were processed

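RNA of whole brain and spinal cord was labelled with biotin and hybridised to Affymetrix mouse exon arrays. The authors deposited 1 linear intensity per probe set, computed with Affymetrix Power Tools and PLIER on build mm8, per the submitters' processing notes. No tool version or setting is stated in the sources used here. Detection calls and probe positions were not used.

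All 625534 probe sets were taken as log2(intensity + 16), which understates changes of dim probe sets. The platform annotation gives 303629 of them 1 gene symbol; 5892 with several and 316013 unnamed ones stayed out of gene results. The floor was the median of all mean log2 values, 6.73. A gene level is the median over at least 3 named probe sets above the floor, and the exon index was computed for genes with at least 5. Group means over all 16 arrays were fitted by limma 3.58.1, functions lmFit and eBayes (R 4.3.3; tables read by data.table, version 1.17.8), two-sided, with Benjamini-Hochberg adjustment at 0.05. The scripts were tested on simulated data. The number of arrays limits the precision, and no coordinates are given because the RefSeq tables are of another build.

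Arrays of the same number deviated together in brain, with correlations of 0.212, 0.407, 0.354 and 0.272 for numbers 1 to 4. The highest with any other number were 0.168, 0.197, 0.200 and 0.0904, a small gap for number 1. The titles give only the numbers and state no pairs. The numbers were taken as possible pairs, and a fit with the replicate number as a block was run beside the fit without it. Counts are of the fit without the block unless another fit is named. The comparison, the 22 gene lists, the 16 marker lists and 19 of the 21 alternatives were chosen with earlier results of these data known; 829 of 892 listed symbols matched. Named are Nova1 and Nova2, called genes, the 30 largest rises and falls of the exon index (1 per gene), genes with at least 4 called probe sets, and at most 5 genes of every list, those of lowest adjusted p. Other genes were chosen after their values were seen.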

Additional observations from a re-analysis of the deposited data

Results flagged for a closer look

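Single arrays stood far from the other 3 of their group for 12 of 194 groups checked, with a gap test at which chance gives about 1 in 20. Among gene levels these were Stx2 in WT brain 1 (7.78, others 8.22 to 8.30), Cdkl1 in WT brain 1 (8.28, others 8.40 to 8.42), Slc4a10 in dKO brain 3 (9.31, others 8.70 to 8.80) and Dtd1 in WT brain 4 (9.81, others 9.52 to 9.55). Among exon indices that were lower than the rest of their group, they were Clip1 in dKO brain 3 (-0.60), Plcb4 in dKO brain 4 (-0.61), Erbb4 in dKO brain 4 (-2.70), Scn9a in dKO brain 4 (0.27), Camsap1 in WT brain 1 (-2.15) and D7Ertd715e in WT brain 2 (0.085). Those that were higher were Ktn1 in dKO brain 4 (-0.61) and Mtap7d2 in dKO brain 4 (-1.11). Of the 8 exon indices, 5 belong to dKO brain 4.

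The exon index of Epb4.1l2 probe set 4959500 fell less in cord than in brain, with a difference of 1.63 (adjusted p = 0.0468 by limma's test of the difference).

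Probe sets with no gene name in the annotation lie outside the gene results. Of 103226 above the floor, 53 were called higher and 68 lower in dKO brain.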

How the results depend on the processing

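Every called gene and probe set kept its direction under all 20 alternatives in which it was tested. The gene calls were 39; they were 24 (6 higher, 18 lower) with the 8 brain arrays alone, and 28 to 45 without 1 array (7 to 17 higher, 20 to 29 lower). The 17 came without WT 2 and the 7 without WT 4. The exon index calls were 290; they were 192 (102 lower) with the 8 brain arrays alone, 187 (83 higher, 104 lower) without both brain arrays of number 3, and 216 to 273 without 1 array. With the replicate block there were 51 gene calls, 34 of the 39 among them, and 206 exon index calls, 189 of the 290 among them; the calls described in the report that the block ended are given there. With the 8 cord arrays alone 111 of the 290 probe sets were called in cord in the brain's direction, against 184 over both tissues. With a sex term 30 of 39 genes and 209 of 290 probe sets remained. With probe sets centred before the median, chosen after the data were seen, 30 and 221 remained. Genes with a called difference between the tissues numbered 34 with quantile normalization, 4 with a pseudocount of 64, 1 without a floor, 11 with the floor at the 75th percentile, 1 with means, 4 with centred probe sets, 1 with the replicate block, 10 without both arrays of number 3, and 0 to 14 without 1 array (14 without WT 3). The probe set of Epb4.1l2 was not alone under a pseudocount of 64 (3 called), and no probe set was called (0) with quantile normalization, a pseudocount of 1, no floor, means, the replicate block, a sex term, without both arrays of number 3, or in 6 of the 8 fits without 1 array. Precision is limited by 4 arrays a group, and dim probe sets have no detection call, so values near 6.73 are not shown to be above background.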

Other observations

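Probe sets with no gene name in the annotation were tested apart. With limma on their own log2 values, 121 of 103226 above the floor were called (0.117%), and 2867 had an unadjusted p under 0.05. In cord 118 of the 121 changed in the same direction and 89 were called. The largest rise was that of probe set 4711213, at 5.69, 9.33, 6.51 and 6.25 in WT and 10.43, 10.13, 10.51 and 10.14 in dKO brains (3.35, adjusted p = 0.0065), where WT brain 2 lay far above the other 3. The largest fall was that of 4326624, at 11.06, 10.94, 11.73 and 11.13 in WT and 7.88, 7.94, 9.03 and 7.89 in dKO brains (change -3.03, adjusted p = 0.0025). Their own values were tested, so a change of an unnamed probe set may be that of a whole transcript.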
